A study of Mus musculus with 4 samples.

Results

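The genes of 8 transcription factors of the liver, Foxa1, Foxa2, Foxa3, Onecut1, Onecut2, Cebpa, Cebpb and Prox1, were followed across 4 maps of RNA polymerase II (Pol II) in mouse organs. They were chosen by name, as regulators of hepatocyte genes, with earlier results of these data known. They are 8 of 21887 protein-coding genes on the nuclear chromosomes of the gene table used. Pol II was mapped by chromatin immunoprecipitation and sequencing in liver, heart, kidney and lung of C57BL/6 mice, with the antibody 4H8, which binds the tail of the enzyme's main subunit. The organs of 2 mice were flash frozen, crosslinked and sheared, and libraries were made with Tn5 transposase. Each organ had 1 list of called regions, so there is no spread between replicates and organs are compared without a test. The sources used here do not give the age or sex of the mice, or whether a list pools both.

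The liver list rested on 20058183 tags and held 61956 regions, whereas the other lists rested on 9880184 to 16589890.5 tags and held 81887 to 101051 regions. Tags are the caller's count of mapped reads and came in steps of less than 1, which the sources used here do not explain. The counting intervals below take 1 unscaled tag as 1 count. All tag values below were scaled by the authors to 10000000 tags per library. The caller's threshold for a window of 500 bp corresponds to 13.96 tags per kb in liver, 18.2 in heart, 14.5 in kidney and 16.5 in lung. In tags per window this is 6.98, 9.11, 7.23 and 8.27 in that order. The regions with the fewest tags had 5.23, 6.07, 5.42 and 5.64, so each list holds regions below its threshold. Absence of a region means only that none was called, not that Pol II was absent. The organ labels were set against marker genes: 10 of 10 hepatocyte genes were covered over at least 50% of the span in the liver list and none in heart, kidney or lung, 8 of 8 cardiomyocyte genes were covered in heart, 8 of 8 tubule genes in kidney and 8 of 8 lung epithelial genes in lung. Outside their own organ, 1 cardiomyocyte gene was covered in liver (Nkx2-5, 50.8%), 1 tubule gene in heart (Cdh16, 65.9%), and 2, 1 and 1 lung epithelial genes in liver, heart and kidney.

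FOXA1, FOXA2 and FOXA3 are forkhead proteins, known as pioneer factors because they bind sites in closed chromatin and open them for other regulators. ONECUT1, also called HNF6, and ONECUT2 bind DNA through a cut domain and a homeodomain and act in hepatocyte and bile duct development. C/EBP alpha and C/EBP beta are leucine zipper proteins, the first needed for metabolic genes of the adult liver and the second induced in inflammation and regeneration. PROX1 is a homeodomain protein of hepatocytes, of lymphatic endothelium and of cardiac muscle.

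Promoter sequences, the 250 bases before the annotated start, were taken from RefSeq (GRCm38.p6, the assembly behind mm10) and are shown for 4 genes as examples that each hold a different known motif. All 7 members with an annotated start had a liver Pol II region there. Sequences run 5′ to 3′ on the strand of the gene. Capitals mark the CACGTG E-box in Onecut1, the forkhead motif TGTTTAC (here on the other strand) in Foxa1, the HNF6 motif TATTGATT in Foxa2 and the TATA motif TATAAA in Cebpa. The Onecut1 window lies on the plus strand of chromosome 9, 74861671 to 74861920, and the Foxa1 window on the minus strand of chromosome 12, 57546112 to 57546361. The Foxa1 span in the gene table runs on to 57548029, so this window lies inside the span and not upstream of it. The Foxa2 window lies on the minus strand of chromosome 2, 148046970 to 148047219, and the Cebpa window on the plus strand of chromosome 7, 35119043 to 35119292.
Onecut1: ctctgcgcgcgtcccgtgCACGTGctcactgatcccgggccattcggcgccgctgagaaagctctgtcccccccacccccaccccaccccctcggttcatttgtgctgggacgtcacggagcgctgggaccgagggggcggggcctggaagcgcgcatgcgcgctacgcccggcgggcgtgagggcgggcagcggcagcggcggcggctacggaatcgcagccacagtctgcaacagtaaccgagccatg
Foxa1: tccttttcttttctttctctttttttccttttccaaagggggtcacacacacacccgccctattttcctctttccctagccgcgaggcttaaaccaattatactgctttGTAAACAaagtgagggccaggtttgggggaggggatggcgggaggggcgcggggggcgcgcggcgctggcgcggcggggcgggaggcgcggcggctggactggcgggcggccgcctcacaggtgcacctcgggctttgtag
Foxa2: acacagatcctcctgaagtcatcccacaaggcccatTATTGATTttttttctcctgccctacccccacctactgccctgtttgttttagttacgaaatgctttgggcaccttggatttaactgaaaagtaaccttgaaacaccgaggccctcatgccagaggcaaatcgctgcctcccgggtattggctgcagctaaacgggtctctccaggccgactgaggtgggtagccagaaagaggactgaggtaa
Cebpa: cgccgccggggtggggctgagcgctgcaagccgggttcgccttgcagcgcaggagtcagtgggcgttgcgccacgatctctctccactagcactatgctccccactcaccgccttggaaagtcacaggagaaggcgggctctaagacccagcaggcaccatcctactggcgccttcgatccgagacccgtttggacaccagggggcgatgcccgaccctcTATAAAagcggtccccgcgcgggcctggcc

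Both strands were searched for each motif in 17486 promoter windows of the same length. The forkhead motif was present in 2.57% of them, the HNF6 motif in 0.64%, the E-box in 6.66% and TATAAA in 12.4%. These shares count a match anywhere in the window, and no share was computed for a given position. Among the 7 members with a promoter in the table, TATAAA stood 30 bases before the start in Cebpa (first base at -30) and at -36 in Foxa3, and in Prox1 on the other strand at -34. The forkhead letters in Foxa1 began at -141, the HNF6 letters in Foxa2 at -214 and the E-box in Onecut1 at -232. The C/EBP motif TTGCNNCAA, found in 1.57% of windows, was in none of the 7. The GC box GGGCGG, found in 42.7% of windows, occurred 5 times in Cebpb and not in Foxa2 or Cebpa. A match is a description of letters and not a site of binding.

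The promoters of the members were rich in G and C, with a median of 66.4% against 55.2% over all 17486 windows. Cebpb was highest with 81.6% and 41 CpG pairs, more than in 98.7% of windows, and Onecut1 followed with 71.6% and 31 CpG pairs. Foxa2 stood at the other end with 50.8% and 6 CpG pairs, below the median of 10 over all windows.

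All 8 members were covered in liver, meaning that at least 50% of the annotated span, introns included, lay inside called regions. The background in the liver list was 21.9% of protein-coding genes. Since the members were chosen with earlier results of these data known, the backgrounds describe the lists and do not test the members. In heart 1 member was covered (background 16.1%), in kidney 3 (background 21.1%) and in lung 4 (background 15.1%). The median covered percent of the 8 members was 100% in liver, 3.26% in heart, 3.56% in kidney and 62.7% in lung, against 2.76%, 2.27%, 5.07% and 3.88% over all protein-coding genes in the same order of organs. Foxa3, Onecut1, Onecut2 and Prox1 were covered in liver and in no other list, a pattern of 5.6% of protein-coding genes. Onecut1 alone among the 8 was covered in liver with no region at all in its span elsewhere, as were 0.676% of protein-coding genes, and Cebpb alone was covered in all 4 lists, as were 8.04%. With a limit of 25% of the span, 2 members were covered in liver only. With only the 50% of regions with the highest caller score kept, 4 members were covered in liver, since the liver regions over the others score below the list's median of 15.5.

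**Figure D1:**
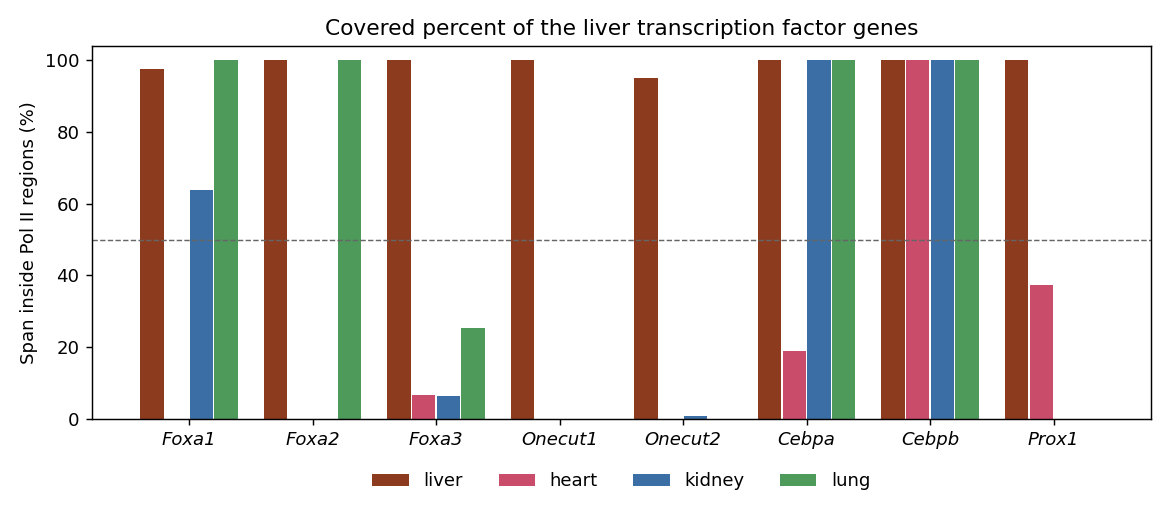
Share of the annotated span (percent, y axis) inside called Pol II regions for each gene (x axis) in the liver, heart, kidney and lung lists, 1 list per organ. The dashed line marks 50%, and all 8 liver bars lie above 95%, whereas a heart bar reaches that height only for Cebpb.

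The values nearest the 50% limit were 63.8% for Foxa1 in kidney and 37.3% for Prox1 in heart. The other values lay at or below 25.3% or at or above 95.1%. A start of transcription could be placed for 7 members, Onecut2 having no promoter entry. A region within 1 kb of the start was found for 7 of 7 in liver (background 50.6% of 17492 genes), 4 in heart (48.6%), 4 in kidney (54.0%) and 5 in lung (51.5%). The 4 heart genes with such a region were Cebpa, Cebpb, Prox1 and Foxa3.

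Onecut1 showed a complete split between the lists. In liver its 27.7 kb span (chromosome 9, 74861921 to 74889648) was covered over 100% at 38.1 tags per kb, and in heart, kidney and lung it held no region. The liver region ran from 74842370 to 75044365, starting 19.6 kb before the gene and ending 155 kb beyond its 3′ end. With a length of 202 kb it was the 4th longest of the liver list and the 16th by tag count, with 7688 tags (exact 95% Poisson interval 7567 to 7810, counting error only). The same region covered 100% of Fam214a, the next gene, which starts 63.2 kb downstream, and reached into Arpp19, which encodes an inhibitor of protein phosphatase 2A. Since the files give 1 tag count per region, Onecut1 and Fam214a have the same liver density by construction.

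Fam214a was covered over 35.8% in heart, 55.96% in kidney and 25.7% in lung, so the occupied interval around Onecut1 was not empty in the other organs. The nearest regions downstream of Onecut1 in those lists began 18.5 kb (heart), 15.3 kb (kidney) and 14.7 kb (lung) past its 3′ end. In kidney the strongest of them was a 5.13 kb region of 116 tags that began 31.8 kb past the gene. All the heart, kidney and lung regions within 50 kb of Onecut1 lay inside the liver region, and upstream of the gene the only one was a kidney region of 500 bp with 7.23 tags. The non-coding genes Gm16551 and Gm38678 within the liver region were covered over 100% in liver and had no region in heart or lung. In kidney Gm16551 was covered over 11.3% and Gm38678 over 0%.

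Onecut2 had the lowest liver density of the 8. Its 58.5 kb span (chromosome 18, 64340032 to 64398488) was covered over 95.1% by 5 liver regions at 23.8 tags per kb, against 0.857% in kidney and no region in heart or lung. Density was uneven along the gene. The first region, 40.8 kb long, began 16.9 kb outside the lower-coordinate end of the gene and had 36.4 tags per kb, whereas the next, of 22.1 kb, had 16.4 and the remaining 3 had 15.0 to 17.3. The kidney list had a single region inside the span, of 500 bp and 8.14 tags, and 2 regions outside the lower-coordinate end, of 2.37 kb and 36.5 tags and of 0.63 kb and 13.0 tags. The lung list had 1 region of 500 bp and 8.27 tags near the same end, and the heart list none within 50 kb. Fech, which encodes the last enzyme of heme synthesis and lies 58.1 kb away, was covered over 66.5% in liver, 9.86% in heart, 38.6% in kidney and 7.53% in lung.

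Prox1 was occupied in liver from end to end and in heart in pieces. Its 52.8 kb span (chromosome 1, 190118035 to 190170827) lay inside an 80.2 kb liver region of 2896 tags, 36.1 tags per kb, that began 12.3 kb before the start and ended 15.1 kb past the 3′ end. In heart 12 separate regions covered 37.3% of the span at 8.88 tags per kb of span, and kidney and lung had no region in it. The heart regions themselves were denser than that mean, with 16.3 to 27.5 tags per kb. The longest, 7.68 kb with 211 tags, lay near the 3′ end, and the next, 4.37 kb with 105 tags, lay over the start.

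Kidney had 2 short regions within 50 kb of Prox1, both upstream, of 17.5 and 14.8 tags, and lung had none. The antisense gene Prox1os, which overlaps the start of Prox1, was covered over 63.2% in liver, 15.7% in heart, 4.11% in kidney and 0% in lung. Immunoprecipitated DNA carries no strand of transcription, so signal of the overlapping pair cannot be told apart. Of 6 lymphatic endothelial markers, Lyve1 was covered in liver (84.6%) and lung (95.8%) and at 20.3% in heart, Flt4 stood at 1.59%, 7.68%, 1.16% and 2.33% in liver, heart, kidney and lung, and Pdpn, Ccl21a, Mmrn1 and Reln did not exceed 3.12% in any list. Their part in the Prox1 values was not tested.

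Foxa3 lies in a dense stretch of genes. Of its neighbours, Irf2bp1 was covered in all 4 lists, Mypop in heart, kidney and lung, and Sympk in none. The 10.3 kb span of Foxa3 (chromosome 7, 19013283 to 19023539) was covered over 100% in liver, 6.51% in heart, 6.27% in kidney and 25.3% in lung. The densities were 52.3, 1.43, 1.08 and 4.17 tags per kb of span in the same order. The liver region, 25.6 kb and 1341 tags, also covered 100% of Irf2bp1, a co-repressor gene 6.52 kb away, and reached into Mypop and Sympk, which encodes a scaffold of messenger RNA 3′ end processing.

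Irf2bp1 was covered over 100% in all 4 lists, and the heart, kidney and lung regions over it ended 4.10, 1.66 and 1.81 kb short of the 3′ end of Foxa3. The lung list had a region of 5.75 kb and 90.6 tags over the Foxa3 start that ran 4.16 kb upstream into Sympk. The heart list had a region of 2.44 kb and 51.1 tags that began 0.112 kb upstream of the start, outside the span, and the kidney list 1 of 0.693 kb and 12.1 tags across the start. Foxa3 thus had a region within 1 kb of its start in every list, at a start that lies 0.838 kb from Sympk.

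**Figure D2:**
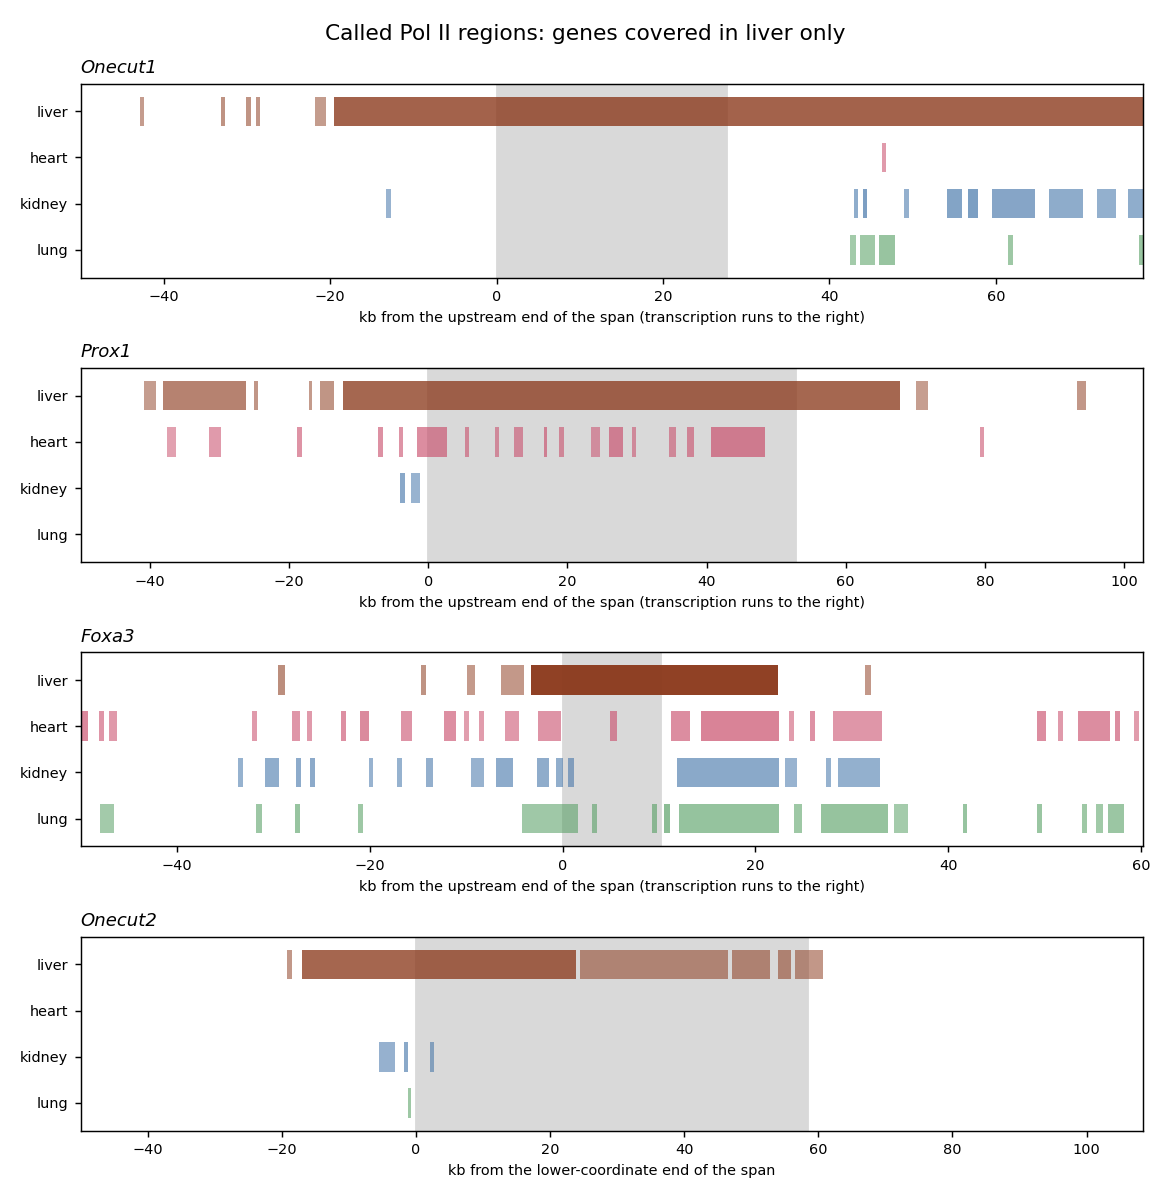
Called regions in the liver, heart, kidney and lung lists (rows) against distance in kb (x axis) at Onecut1, Prox1, Foxa3 and Onecut2, with the gene span in grey and 50 kb on each side. Bars are regions, clipped at the panel edges and drawn darker with higher tags per kb. Liver bars cover 100% of the grey span at Onecut1, Prox1 and Foxa3 and 95.1% at Onecut2 in 5 pieces, heart bars cover 37.3% of Prox1 in 12 pieces, and Onecut1 has no bar from another organ inside its span.

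Foxa1 was covered in liver, kidney and lung. Its 7.40 kb span (chromosome 12, 57540628 to 57548029) was covered over 97.5% in liver, 63.8% in kidney and 100% in lung, and held no heart region. The densities were 45.9 tags per kb in liver, 13.1 in kidney and 28.1 in lung. The liver region, 16.5 kb long with 774.5 tags, ran 9.26 kb past the 3′ end, and the lung region, 12.9 kb with 361 tags, ran 5.43 kb past it. The kidney regions were 3, the largest of 5.15 kb and 113 tags lying across the 3′ end and the smallest, of 0.852 kb and 11.2 tags, lying inside the span just upstream of the start in the promoter table. The neighbouring Ttc6, which overlaps the annotated Foxa1 span, was covered over 1.72% in liver, 0.276% in kidney and 2.58% in lung.

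Downstream of Foxa1 the liver and lung lists shared an interval over the non-coding gene Gm20016. Gm20016 was covered over 61.4% in liver and 85.0% in lung, and over 0% in heart and kidney. The liver region there had 7.23 kb and 153 tags, and the lung region 4.76 kb and 100.4 tags. Lung also had a region of 2.49 kb and 82.3 tags that lay 43.3 kb downstream and that no other list overlapped. Heart had a single region in the surroundings of Foxa1, of 500 bp and 9.62 tags.

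Foxa2 was covered over 100% in liver and 100% in lung and had no region in heart or kidney. Its 4.09 kb span (chromosome 2, 148042877 to 148046969) had 51.98 tags per kb in liver and 26.6 in lung. The liver region was 125 kb long (147924953 to 148049957) and had 6498 tags (interval 6387 to 6611), ranking 36th by length and 21st by tag count. It extended 118 kb past the 3′ end of Foxa2 and 2.99 kb upstream, and held no other protein-coding gene.

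The long non-coding gene 9030622O22Rik, which spans 96.1 kb beside Foxa2, was covered by that region over 100% in liver. It was covered over 47.5% in lung, 2.16% in kidney and 0% in heart. The lung list broke the same interval into pieces, with a 14.2 kb region of 377 tags over Foxa2 and another of 14.2 kb and 329.8 tags that began 14.1 kb past the gene. Of the 12 lung regions within 50 kb outside the span, 3 were overlapped by no other list, as were 4 of 4 in liver. In kidney 2 regions of 23.5 and 8.44 tags lay within 50 kb, and heart had none.

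In the lung list, where Foxa1 and Foxa2 were covered, 8 of 8 lung epithelial markers were covered, and their part in the lung values was not tested. In liver 2 of these 8 were covered, Sftpc at 74.8% and Ager at 100%, and Ager was covered in all 4 lists. The bile duct markers Krt7, Krt19, Epcam, Spp1 and Cldn4 had no region in their spans in liver, and Sox9 was covered there over 28.0%. The median over all protein-coding genes in liver was 2.76%. In bulk organs fewer cells of a type and less Pol II per cell cannot be told apart.

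Cebpa was covered in liver, kidney and lung and over 19.0% in heart. Its 2.64 kb span (chromosome 7, 35119293 to 35121928) had 55.5 tags per kb in liver, 4.21 in heart, 28.1 in kidney and 22.7 in lung, the liver value being the highest of the 8 members. The liver region was 42.1 kb long with 2337 tags and extended 7.46 kb upstream and 32.1 kb downstream. The lung region was 15.3 kb with 349 tags, and the kidney region 7.53 kb with 212 tags. In heart the only region inside the span was 500 bp with 11.1 tags, and a second of 1.17 kb and 32.9 tags ended 0.051 kb before the gene. Joining regions separated by no more than 1000 bp merged these heart regions, which put Cebpa at 8.81 tags per kb in heart and made it the second of 2 members covered there.

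A second occupied interval lay downstream of Cebpa. In kidney a region of 7.94 kb and 219 tags began 18.1 kb past the gene (35140074 to 35148018), a tag count within counting error of that over Cebpa itself. In lung a region of 6.16 kb and 123 tags began 21.4 kb past it (35143297 to 35149457). Both lay inside the liver region that covers Cebpa, and the heart list had a single region of 500 bp and 9.11 tags in that part of the flank. The liver list also had a region of 19.2 kb and 570 tags upstream, 24.9 kb from the gene, and 1 of 11.2 kb and 402 tags 39.2 kb downstream. No protein-coding gene other than Cebpa lies within 50 kb of it in the gene table.

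Cebpb was covered over 100% in every list. Its 1.52 kb span (chromosome 2, 167688915 to 167690432) had 45.3 tags per kb in liver (interval 38.1 to 53.6), 45.6 in heart (35.5 to 57.8), 24.3 in kidney (18.6 to 31.2) and 25.7 in lung (19.2 to 33.8). These intervals, from tags given to the span in proportion to its bases, overlapped between liver and heart and between kidney and lung. The regions over it measured 23.9 kb in liver, 15.5 kb in heart, 15.1 kb in kidney and 22.6 kb in lung. All of them extended 9.46 to 12.1 kb past the 3′ end, across the non-coding gene A530013C23Rik, which was covered over 100% in each list. Upstream, a kidney region of 63.9 kb and 1810 tags ended 4.57 kb from Cebpb and covered 100% of Tmem189, which encodes an enzyme of plasmalogen synthesis. Tmem189 was covered over 59.8% in liver, 27.4% in heart and 77.5% in lung.

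**Figure D3:**
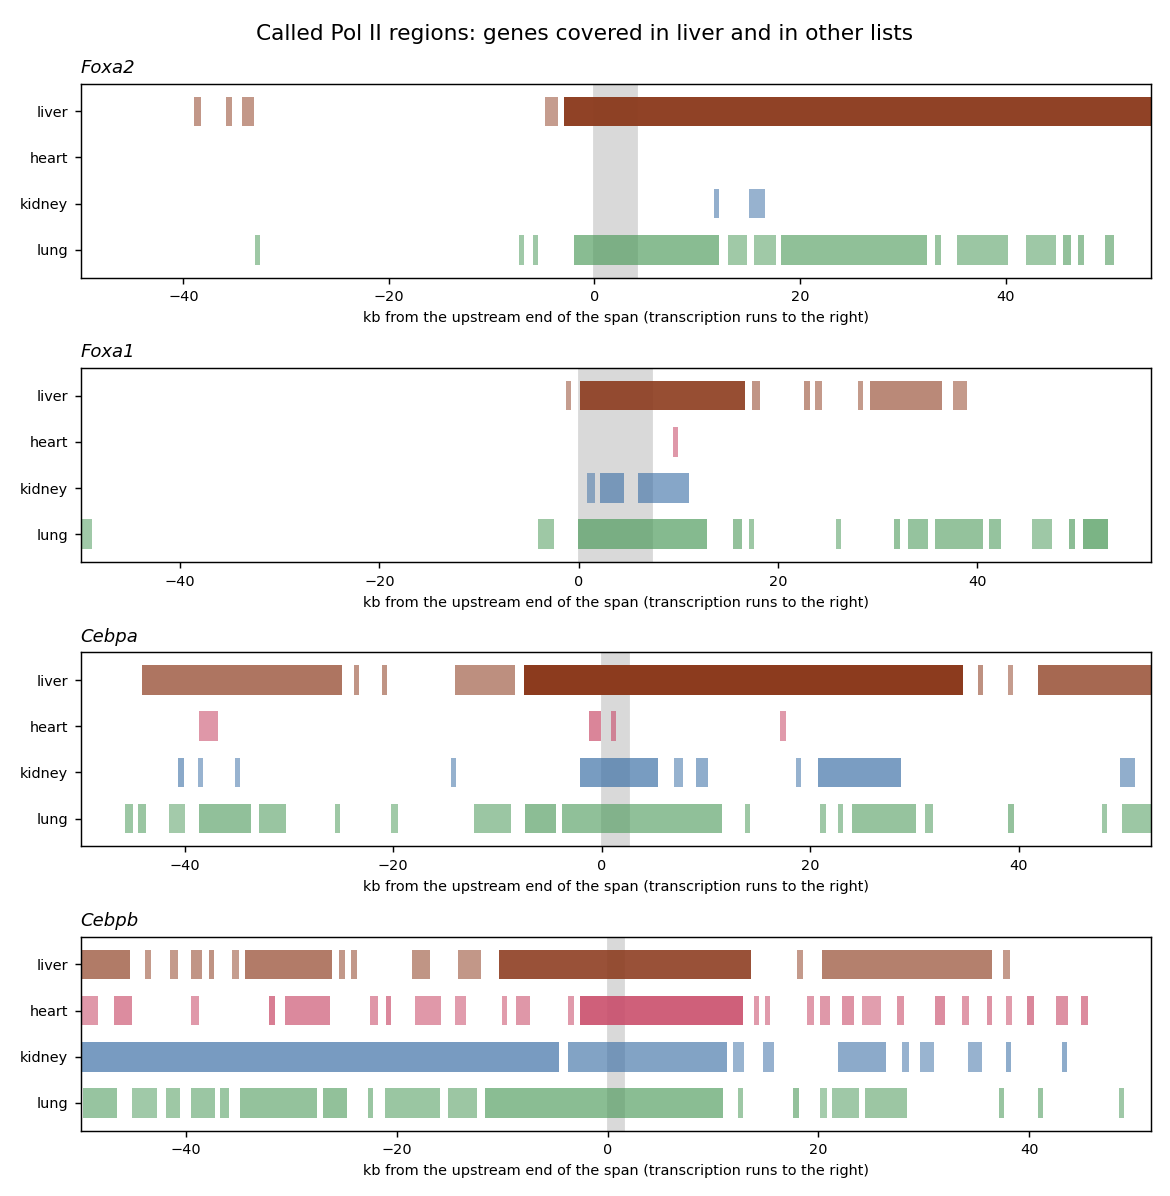
Called regions in the liver, heart, kidney and lung lists (rows) against distance in kb (x axis) at Foxa2, Foxa1, Cebpa and Cebpb, with the span in grey and 50 kb on each side. Bars are regions, clipped at the panel edges and drawn darker with higher tags per kb. Liver bars reach 118 kb past Foxa2, cut at 50 kb, and Cebpb has a bar over its whole span in all 4 rows.

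Ordered by liver density, Cebpa (55.5 tags per kb of span) was followed by Foxa3 (52.3), Foxa2 (51.98), Foxa1 (45.9), Cebpb (45.3), Onecut1 (38.1), Prox1 (36.1) and Onecut2 (23.8). The counting interval of a span density was computed from tags given to the span in proportion to its bases, not counted within it. Each such interval overlapped that of the next gene in this order down to Prox1 (35.0 to 37.3). The whole regions hold more tags than the spans, so their relative counting error is smaller. The overlap therefore does not show that the densities are equal. The interval of Onecut2, 22.9 to 24.7, lay below all the others. The 3 longest genes held the last 3 places. These densities exceeded those of 89.3% (Onecut2) to 99.4% (Cebpa) of protein-coding genes in the liver list. The Onecut2 value is a mean over unequal regions. Of its 5 liver regions, 4, at 15.0 to 17.3 tags per kb, lay below the window threshold of the heart list (18.2). Of these, 2 lay also below that of the lung list (16.5). Regions of such density were still called there, such as 1 of 14.9 tags per kb in heart upstream of Prox1. In lung 1 downstream of Cebpb had 13.2. The median over the 8 members was 45.6 tags per kb in liver, 0.717 in heart, 0.611 in kidney and 13.4 in lung, against 0.452, 0.482, 0.907 and 0.685 over all protein-coding genes.

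**Figure D4:**
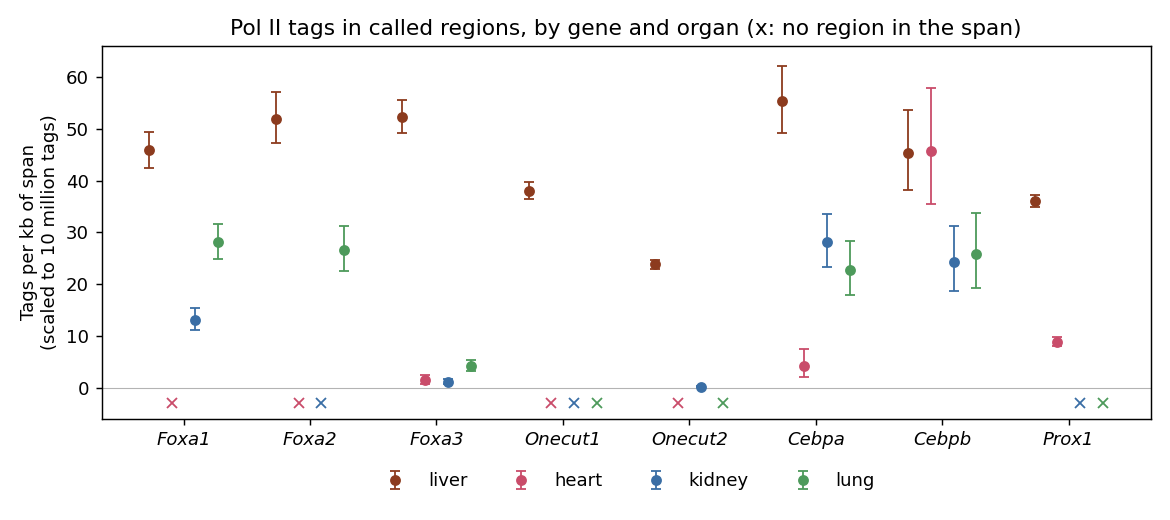
Tags per kb of span inside called regions (y axis, scaled to 10000000 tags) for each gene (x axis) in liver, heart, kidney and lung. Points are the 1 value per organ, and a cross below 0 marks a span with no region. Bars are exact 95% Poisson intervals of the tags given to the span in proportion to its bases, and cover counting error only. The liver point is the highest for 7 genes, and for Cebpb the liver and heart points stand at 45.3 and 45.6.

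Where a member was covered in liver and in a second list, its liver density was set against the same ratio over all genes covered in both lists. That ratio had a median of 0.943 for liver over heart (2359 genes), 1.12 for liver over kidney (3209 genes) and 1.37 for liver over lung (2320 genes). Foxa1 had 3.49 times the kidney density in liver, a ratio above that of 98.7% of such genes. The kidney span is covered in part, and within the regions that touch Foxa1 the densities were 47.0 tags per kb in liver and 21.2 in kidney. In liver Cebpa and Cebpb had 1.97 and 1.87 times the kidney density. Against lung the ratios were 2.44 for Cebpa, 1.95 for Foxa2, 1.76 for Cebpb and 1.63 for Foxa1. All 4 lay between the median of 1.37 and the 90th percentile of 2.64. Cebpb had a liver over heart ratio of 0.994. The share of a library's tags that fell inside regions was 55.1% in liver, 46.3% in heart, 44.1% in kidney and 32.1% in lung, and its part in these ratios was not tested.

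The surroundings of the 8 genes, 50 kb on either side, were covered over 47.1% in liver, 10.9% in heart, 18.1% in kidney and 25.4% in lung. The whole lists covered 209.8 Mb in liver, 162.8 in heart, 199.6 in kidney and 161.3 in lung, and the flanks of other genes were not measured. Regions that cover a gene and run outward count here too, so the shares are in part those of the spans. In liver the covered share ran from 19.8% at Onecut2 to 77.2% at Cebpa. In heart it was at or below 7.34% for every member except Foxa3 (34.5%) and Cebpb (41.0%). At Cebpb it was 61.2% in liver and 70.0% in kidney, and at Foxa1 21.0% in liver and 23.8% in lung. At Foxa3 liver had the lowest share, 20.6%, with 34.5% in heart, 26.5% in kidney and 31.1% in lung.

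Counted as separate regions that do not touch the gene, the order was another. Liver had 50 such regions, heart 61, kidney 48 and lung 79. The heart regions were concentrated at Cebpb (26) and Foxa3 (24), and 23 of the 61 overlapped another protein-coding gene. Of the liver regions 24 of 50 (48.0%) were overlapped by no other list, against 11 of 61 in heart, 2 of 48 in kidney and 16 of 79 in lung. Over the whole lists that share was 31.1% in liver, 31.0% in heart, 31.3% in kidney and 31.2% in lung. The flank shares are not of the same kind as these. A region touching a gene was left out of its own list's flank count but could still overlap flank regions of other lists. At Onecut1, for example, all 10 kidney flank regions lay inside the liver region over the gene. The liver regions found alone were small, and with regions of less than 10 tags left out 9 of 25 were counted. With the lists cut to equal covered length, 8 liver regions and none found in liver only were counted.

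By the tags per kb of span over the 4 organs, the genes most like each member were taken as those at the smallest distance on the log2(tags per kb + 1) scale. For Onecut1 they were Nags, which encodes the enzyme that makes the activator of the urea cycle, Fetub, a plasma protein gene, and Ugt2b35, a glucuronosyltransferase gene, with 37.7 to 38.6 tags per kb in liver and no region in the other lists. For Onecut2 they included C4b and C8b, which encode complement components. The closest to Foxa2 was Hp, the haptoglobin gene, with 42.4 tags per kb in liver, 21.9 in lung and no region in heart or kidney, followed by the surfactant gene Sftpc. For Foxa1 they were Cldn3, AA986860 and Foxq1, for Foxa3 Apoc4, Sec14l2 and Bmp1, and for Cebpa Gstp3, Mien1 and Gm3336. For Cebpb they were Arl4d, Tcta and Amt, and for Prox1 Rnase13, Snai2 and Scgb1c1. With 4 organs and 1 value each, this likeness is a description.

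Among 32 other transcription factors of the liver, 25 were covered in the liver list, 14 in heart, 15 in kidney and 10 in lung. This set too was chosen with earlier results of these data known. The backgrounds are those given above for the 4 lists, with 5.6% for liver only and 8.04% for all 4 lists. The nuclear receptor genes Nr5a2 and Nr1i2, the sterol and fasting regulator gene Creb3l3, the glucose-responsive Mlxipl and Zbtb20 were the 5 covered in liver only. Zbtb20 came near the limit elsewhere, with 47.5% in heart and 45.9% in kidney. Hnf4a, a main regulator of hepatocyte genes, was covered over 90.0% in liver and 70.2% in kidney, and over 1.76% in heart and 0% in lung. Hhex, a homeobox gene of early liver development, had the highest liver density of this list, 70.2 tags per kb. It was also covered in lung (59.6%) and stood at 49.9% in heart. Covered in all 4 lists were 7, Nr1h3, Nr2f2, Nr2f6, Foxo3, Klf15, Srebf1 and Xbp1. The 7 not covered in liver were Hnf4g, Esrrg, Cux2, Gata6, Zhx2, Tcf7l2 and Nfia, with Nfia at 49.2% and Hnf4g at 0%.

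Genes known as liver targets of these factors were covered mostly in the liver list. Of 28 targets, 26 were covered in liver (background 21.9%), 0 in heart (16.1%), 5 in kidney (21.1%) and 1 in lung (15.1%). The targets were likewise chosen with earlier results of these data known. Covered in liver only were 20 (background 5.6%). Alb, Ttr, Apoa1, Apob, Serpina1a, Fgb, Tat and Cps1 are also among the hepatocyte markers set against the organ labels. The 2 results therefore share these genes. Median density was 49.2 tags per kb in liver, with Fgb, a fibrinogen chain gene, at 89.2, the urea cycle gene Cps1 at 75.9 and Apob at 73.9. The kidney genes were Pck1, G6pc, Slc2a2, Pklr and Slc10a1, the first 2 encoding enzymes of gluconeogenesis, and the lung gene was Hp. The targets not covered in liver were Otc (34.4%) and Ppargc1a (7.12%).

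**Figure D5:**
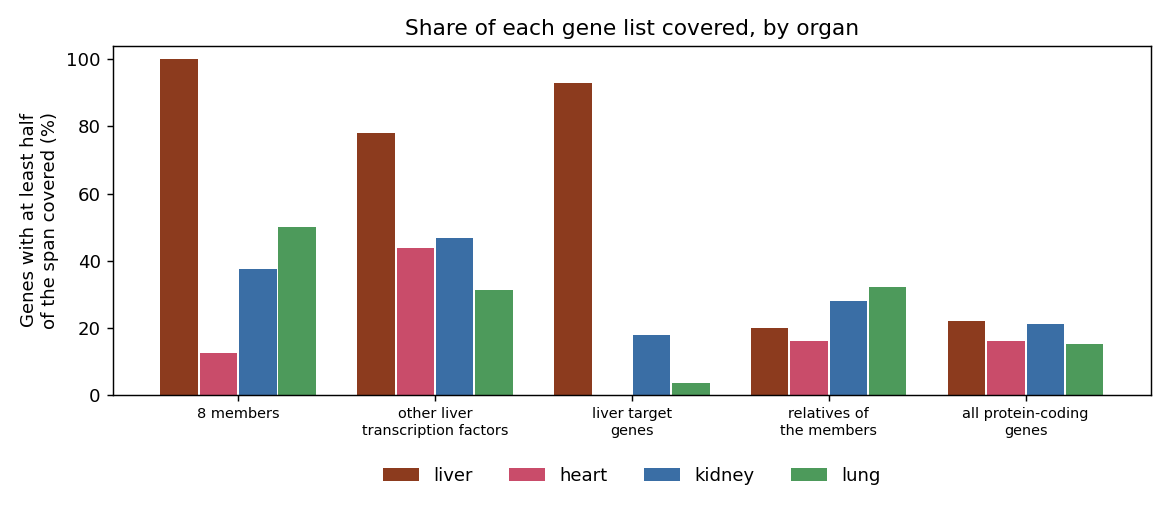
Percent of the genes of each list (y axis) with at least 50% of the span inside called regions in liver, heart, kidney and lung, for the 8 members, 32 other liver transcription factors, 28 liver target genes, 25 relatives of the members and all protein-coding genes. Bars are single values without replicates. Liver bars stand for 8 of 8 members, 25 of 32 factors, 26 of 28 targets, 5 of 25 relatives and 21.9% of all genes.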

How the data were processed

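Pol II ChIP-seq region lists of liver, heart, kidney and lung were used, 1 for each organ. The submitters' processing notes name mm10, Bowtie2 2.2.8 and HOMER 4.8. Per the file headers, the authors ran findPeaks with its histone setting on windows of 500 bp that were stitched together, at a Poisson p-value threshold of 0.001 and with no control library in the command. The deposited signal of a region is its tag count scaled to 10000000 tags. The deposited score is the caller's own and was used only to select regions in an alternative. The deposited clonal ratio was not used.

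Gene spans came from a RefSeq table of GRCm38.p6, and strands and starts from the promoter table of the same build. Covered percent is the share of a span inside regions. A region's tags were given to a gene in proportion to the bases inside its span and divided by the span in kb, so genes under 1 region share its density, and tags outside regions were not counted. Exact 95% Poisson intervals came from unscaled tags and cover counting error only. For a span they used the tags given to it in proportion, which were not counted there. Python 3.11.15, pandas 2.3.3 and scipy 1.17.1 were used, and the interval code equalled per-base counts in 100% of 1000 simulated queries. The members and lists were chosen with earlier results of these data known, and the motifs with the sequences known. Named genes are the members, protein-coding genes that share a region with them, their nearest coding neighbours, the 3 most alike genes of each, and list members covered or not covered in liver. Non-coding genes, and Hhex, Hnf4a and the target genes singled out by density, were named after their values were seen. Some genes that this rule names are not reported here.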

Additional observations from a re-analysis of the deposited data

How the results depend on the processing

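Counts are given for liver, heart, kidney and lung in that order unless organs are named, and tags per kb here are all tags over the 8 spans divided by their summed length, 34.3, 3.42, 1.38 and 2.78 as first computed. Keeping the 50% of regions with the highest score left 4 members covered in liver, 2 in liver only and 3 with a liver region at the start. It left 15, 3, 7 and 4 other liver factors, 5 relatives in lung, 2 targets in kidney and 0 in lung, 26, 26, 26 and 44 flanking regions, and 8 flanking regions found in kidney only. Tags per kb were then 16.7 in liver, 2.56 in heart and 2.50 in lung. With regions of at least 10 tags, there were 25 liver and 52 lung flanking regions, and 9 found in liver only. With the lists cut to equal covered length there were 8 liver and 17 kidney flanking regions, 0 in liver only and 1 in kidney only, and 1.20 tags per kb in kidney. Joining gaps up to 1000 bp gave 2 members and 1 target covered in heart, and 7 flanking regions found in heart only. It left 47 lung flanking regions, shared ones included. A limit of 25% of the span gave 2 members covered in liver only, 2 members in heart, 11, 10, 11 and 14 relatives, and 3 targets in heart and 4 in lung. A limit of 75% gave 9 other factors in heart and 6 in lung, and 4 relatives in lung. Flanks of 20 kb held 17, 27, 27 and 28 regions, with 9, 5, 1 and 5 in one list only. Flanks of 100 kb held 98, 117, 91 and 165, with 41, 22, 7 and 30 in one list only. Sharing at 50% of the shorter region gave 7 flanking regions in kidney only. Counting the density of touching regions alone gave 41.8, 32.7, 24.0 and 24.8 tags per kb. The start windows of 500 and 2500 bp left the counts of members with a region at the start within 1.5 times.

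No paired analysis was possible because each organ has 1 list and no result comes from a test. Depth differed between the lists, and the caller's window threshold was lowest in liver, 13.96 tags per kb, against 14.5 to 18.2 in the other lists. Each list also holds regions below its threshold. The recorded command names no control library.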

Other observations

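Of 25 chosen relatives of the 8 factors by family, 5 were covered in liver (background 21.9%) and 4 in heart (background 16.1%). In kidney 7 were covered (background 21.1%) and in lung 8 (background 15.1%), and none was covered in liver only. The families are not complete in this list. Foxo1 (97.2% in liver), Foxo3 (94.4%) and Cux2 (8.2%) were counted among the other liver factors, whereas Foxo4 and Cux1 were counted here. The 5 in liver were Foxk1 (79.2%) and Foxq1, Cebpd, Cebpg and Ddit3 (100% each). Foxf1, a gene of lung mesenchyme, was covered over 0% in liver and kidney, 13.3% in heart and 100% in lung. Foxj1, the regulator of motile cilia, had no region in liver or heart and was covered over 71.1% in kidney and 53.6% in lung. Foxd1, a gene of kidney stroma, was covered over 0% in liver and 100% in kidney, and Foxc1 over 39.2% in liver, 100% in heart, 51.9% in kidney and 72.9% in lung. Cebpd, the C/EBP gene induced in the acute phase, was covered over 100% in all 4 lists, with 26.9 tags per kb in liver, 38.2 in heart, 27.4 in kidney and 28.9 in lung. Onecut3 did not exceed 11.1% in any list.

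Markers of other liver cell types differed by type in the liver list. None of 6 Kupffer cell genes and none of 6 stellate cell genes had a region in the span there. The share of all protein-coding genes without a liver region in the span was not computed. Of all protein-coding genes 21.9% were covered in liver. The 6 genes of sinusoidal endothelium had a median covered percent of 43.1% in liver, against 2.76% over all protein-coding genes. Of these, Lyve1 (84.6%) and Oit3 (76.4%) were covered, Fcgr2b stood at 48.2%, Stab2 at 38.0%, Kdr at 11.5% and Clec4g at 0%.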
